A study of Mus musculus with 100 samples.

Results

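The injury response of C57BL/6 knee joints at 2-weeks post-injury was measured by RNA sequencing in 10 of the 100 libraries of the series: 5 injured joints and the 5 uninjured contralateral joints of the same 5 mice. The libraries were chosen by strain, time and joint alone, and all 17310 genes listed once in the count table were compared. The mice were C57BL/6 (C57BL/6J in the study's text), 10 weeks old at injury. The right knee received 1 compressive tibial load of 10 to 12 N, which ruptures the anterior cruciate ligament, under isoflurane and with buprenorphine given afterwards, and the left knee was left uninjured. The series holds the same comparison for STR/ort, a strain prone to osteoarthritis, and for MRL/MpJ, a strain that resists it, and C57BL/6 joints at 1-day and 1-week. The uninjured joint belongs to an injured, anaesthetised and treated animal, so it is not a joint of an uninjured mouse. Total RNA came from whole joints with traces of soft tissue, and in such samples fewer cells of a type and less RNA per cell cannot be told apart.

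Rupture of the anterior cruciate ligament leaves the knee unstable and leads to post-traumatic osteoarthritis, in which cartilage is lost, the synovium thickens and scars, and new bone and cartilage form at the joint margins. Fibroblasts of the synovium, capsule and ligaments answer injury by laying down collagens, proteoglycans and glycoproteins, by crosslinking them through lysyl oxidases, and by remodelling them with metalloproteinases held in check by tissue inhibitors. Wnt, TGF-beta, BMP and IGF signals act on these cells and on the chondrocytes that maintain cartilage.

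The total count was 9316112 to 12483212 in injured and 8384536 to 10819438 in uninjured libraries, and genes with few counts are accordingly imprecise. Levels are given as CPM, counts scaled to a common library size, after TMM scaling, a correction for differences in library composition, with the libraries named by replicate, which stands for the mouse. The first principal component of the 10 libraries (36.1% of the variance) separated all injured from all uninjured joints, and the second (16.3%) separated both joints of mice 1 and 4 from those of mice 2, 3 and 5. All measured genes of the osteoblast and osteocyte, osteoclast, cartilage matrix and skeletal muscle lists had counts. The summed level of 13 neutrophil genes was 12574 to 15747 CPM in injured and 16454 to 20066 CPM in uninjured joints, that of 10 erythroid genes 2442 to 3616 CPM in injured and 3318 to 4572 CPM in uninjured joints, and that of 18 fast skeletal muscle genes 106914 to 140878 CPM in injured and 88831 to 116280.0 CPM in uninjured joints. Neutrophil and erythroid sums were thus lower, and the fast muscle sum higher, in the injured joint of 5 of 5 mice, although 0 genes of these lists passed the test. The part of these shifts in the results was not tested.

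Almost all genes that passed the test were higher in injured joints. Calls required, in edgeR's quasi-likelihood test, an adjusted p below 0.05 together with a fold change above 1.5. By this rule 499 of 17310 genes (2.88%) were higher and 12 (0.0693%) lower in injured joints, while the median log2 fold change over all genes was 0.00. At any fold change 1384 genes had an adjusted p below 0.05, and 50.8% of all 17310 fold changes were above 0. Smaller changes than 1.5-fold, in either direction, are thus not covered by these calls. Of the 499 genes, 190 rose more than 2-fold and 15 more than 4-fold. The level was higher in the injured joint of all 5 mice for 476 of the 499, and the 5 injured and 5 uninjured joints did not overlap for 422. Of all 17310 genes tested, 14.1% were higher in the injured joint of all 5 mice and 6.53% were higher with no overlap. The 499 genes were chosen by the contrast, so the counts describe them and test nothing. The size of the rise varied between mice: the median log2 ratio of injured to uninjured joint over the 499 genes was 1.11 in mouse 1, 0.97 in mouse 4, 0.74 in mouse 3 and 0.70 in mice 2 and 5. Mice 1 and 4 are also the pair set apart by the second principal component.

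**Figure D1:**
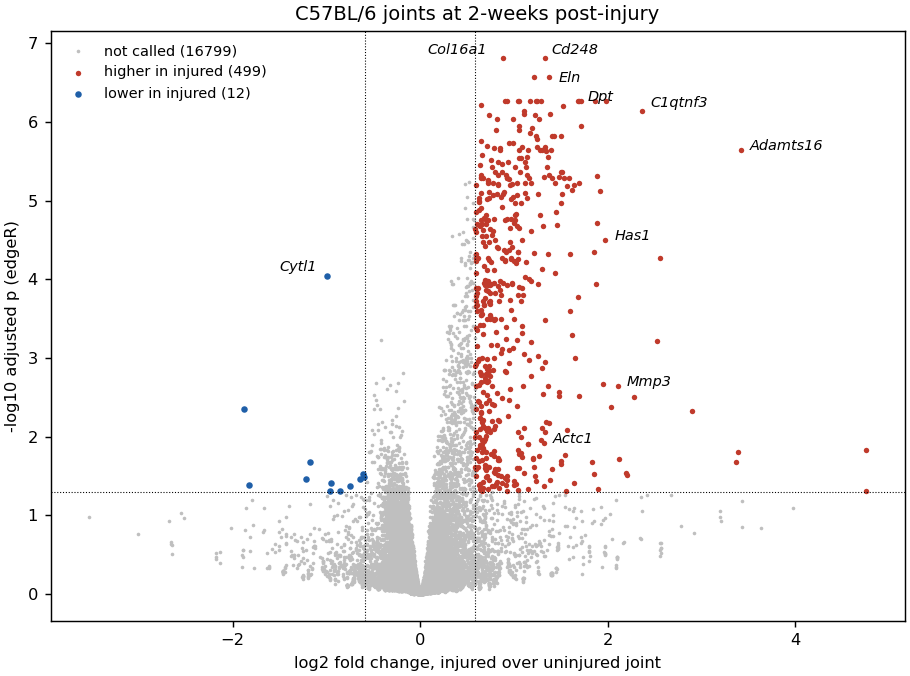
Each point is 1 of 17310 genes, placed by the log2 fold change of injured over uninjured C57BL/6 joints at 2-weeks (horizontal axis) and by -log10 of the adjusted p (vertical axis), with dotted lines at the thresholds. Called genes lie almost all on the right, 499 higher against 12 lower, with Adamts16 at 3.43 and Cytl1 at -1.00.

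The 10 genes with the smallest adjusted p included those for endosialin, elastin and several collagens. Cd248, at chr19:5068078-5070640 (GRCm38), encodes endosialin, a surface glycoprotein of activated fibroblasts and pericytes. Its level was 45.4, 44.1, 37.9, 44.9 and 34.9 CPM in injured and 14.7, 15.5, 18.7, 16.8 and 16.6 CPM in uninjured joints of mice 1 to 5, and every injured joint lay above every uninjured one (log2 fold change 1.33 ± 0.13 SE, adjusted p = 1.54e-07). Col16a1, at chr4:130047817-130099277, encodes a fibril-associated collagen, and held 167, 136, 131, 169 and 131 CPM in injured and 79.1, 79.6, 75.6, 80.6 and 82.5 CPM in uninjured joints (log2 fold change 0.88 ± 0.08 SE, adjusted p = 1.54e-07). Its uninjured values lay close together, and the groups did not overlap. Eln, at chr5:134702595-134747368, encodes elastin, the core of elastic fibres, and reached 86.3, 88.0, 98.4, 117 and 91.2 CPM in injured against 33.0, 35.3, 43.0, 38.3 and 35.4 CPM in uninjured joints (log2 fold change 1.38 ± 0.14 SE, adjusted p = 2.67e-07). Dpt encodes dermatopontin, a matrix protein that binds decorin, and rose from 37.0, 50.3, 53.7, 56.6 and 48.0 CPM to 180.0, 158, 132, 175 and 147 CPM (log2 fold change 1.69 ± 0.18 SE, adjusted p = 5.38e-07). For both genes the groups were far apart, with mouse 4 highest for Eln and mouse 1 for Dpt.

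The other genes of the first 10 were Col8a2 (log2 fold change 1.21 ± 0.12 SE, adjusted p = 2.67e-07), a network-forming collagen, Htra4 (log2 fold change 1.06 ± 0.11 SE, adjusted p = 5.38e-07), a secreted serine protease, and Col5a1 (log2 fold change 1.05 ± 0.11 SE, adjusted p = 5.38e-07), which nucleates collagen fibrils. Asporin, a small leucine-rich proteoglycan that binds TGF-beta and is encoded by Aspn, followed with log2 fold change 1.23 ± 0.13 SE, adjusted p = 5.38e-07. Prkcdbp, which encodes the caveolar coat protein cavin 3, rose by 0.92 ± 0.10, and Mmp2, encoding gelatinase A, by 1.17 ± 0.13 on the log2 scale (adjusted p = 5.38e-07 and 5.38e-07). In each of these 6 genes the groups did not overlap.

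Promoters of the Col3a1, Mmp3 and Cytl1 genes are shown because Col3a1 had the largest rise of the fibrillar collagens, Mmp3 that of the matrix metalloproteinases, and Cytl1 the smallest adjusted p of the genes that fell. They span 250 bases before and 50 after the transcription start on the plus strand of the RefSeq GRCm38.p6 annotation, at chr1:45311288-45311587, chr9:7445572-7445871 and chr5:37735269-37735568. Capitals mark matches on either strand to the motif TGANTCA of AP-1 factors, to the motif GGAATG of TEAD factors, and to TATAAA as the letters of the classical box upstream of many start sites. The matches do not overlap each other.
Col3a1: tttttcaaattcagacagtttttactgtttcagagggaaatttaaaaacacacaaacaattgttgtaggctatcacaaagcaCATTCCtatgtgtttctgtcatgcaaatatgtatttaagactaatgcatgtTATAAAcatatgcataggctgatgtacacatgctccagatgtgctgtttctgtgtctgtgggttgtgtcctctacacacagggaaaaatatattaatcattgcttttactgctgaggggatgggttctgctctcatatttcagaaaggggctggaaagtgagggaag
Mmp3: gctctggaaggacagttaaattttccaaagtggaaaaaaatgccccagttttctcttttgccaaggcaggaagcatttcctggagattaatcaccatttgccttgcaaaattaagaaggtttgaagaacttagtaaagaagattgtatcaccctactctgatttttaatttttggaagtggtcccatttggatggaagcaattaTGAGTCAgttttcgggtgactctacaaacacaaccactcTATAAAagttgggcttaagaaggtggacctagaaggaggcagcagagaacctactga
Cytl1: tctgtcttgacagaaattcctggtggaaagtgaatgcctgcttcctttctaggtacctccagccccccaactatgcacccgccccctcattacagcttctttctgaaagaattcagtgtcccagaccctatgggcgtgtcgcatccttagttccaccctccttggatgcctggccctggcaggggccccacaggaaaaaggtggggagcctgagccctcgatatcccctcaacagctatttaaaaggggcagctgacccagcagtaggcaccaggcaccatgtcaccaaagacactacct
The Col3a1 window held 1 TEAD and 1 TATA box match, the Mmp3 window 1 AP-1 and 1 TATA box match, and the Cytl1 window none. Promoters were given for 348 of the 499 higher genes, 437 windows in all. Of these windows 10.1% held the AP-1 letters, against 5.82% of the 16110 windows of all tested genes. The shares were 17.8% against 12.8% for TEAD and 11.7% against 8.40% for the TATA box. For the genes that fell, 2 of 10 windows held AP-1, 1 held TEAD and 2 held a TATA box. A match of letters is a description and does not show binding, and a window without one says nothing about the factor.

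Collagen genes of several classes rose. All 7 measured microfibrillar and network collagens were called higher (median log2 fold change 1.21), against 4 of 8 fibrillar collagens (median 0.60), 5 of 15 basement membrane genes (median 0.53) and 2 of 9 fibril-associated collagens of the FACIT class (median 0.19). Over all genes 2.88% were called higher, with a median of 0.00. Col3a1, the collagen of repairing and elastic tissue, had 5302, 3362, 3462, 4836 and 3889.7 CPM in injured and 1175, 1288, 1170.2, 1335 and 1378 CPM in uninjured joints (log2 fold change 1.72 ± 0.19 SE, adjusted p = 5.38e-07). Its uninjured levels were nearly level across the 5 mice, whereas among injured joints mice 1 and 4 stood highest. Col5a1 and Col5a2, the subunits of the type V collagen that sets fibril diameter, rose by 1.05 ± 0.11 and 0.83 ± 0.11. The type I collagen gene Col1a1 had 15026, 11995, 14185, 16127 and 14749 CPM in injured and 10238, 11207, 10504, 12129.8 and 10938 CPM in uninjured joints, and its fold stayed below the 1.5 threshold (log2 fold change 0.39 ± 0.12 SE, adjusted p = 0.0309). It was higher in the injured joint of each mouse, but the groups overlapped.

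The type VI collagen genes, which form beaded filaments around cells, rose together. Col6a1 held 564, 274, 349, 489 and 425 CPM in injured and 178, 158, 159.9, 177 and 183 CPM in uninjured joints (log2 fold change 1.30 ± 0.16 SE, adjusted p = 2.27e-06), with mouse 2 lowest and mouse 1 highest among injured joints. Col6a2 and Col6a3 gave log2 fold changes of 1.38 ± 0.16 and 1.23 ± 0.14, and Col6a5, Col6a6, Col8a1 and Col8a2 were also called. Col14a1, a FACIT collagen of tendon and dense connective tissue, rose by 1.54 ± 0.21 (adjusted p = 5.14e-06), from 27.5, 35.5, 35.6, 30.8 and 34.7 CPM to 105, 93.3, 76.4, 102 and 99.0 CPM. Each injured joint exceeded every uninjured one. In the basement membrane list the largest changes were those of Col18a1 (1.20 ± 0.14), the source of endostatin, Col15a1 (1.15 ± 0.14), and the laminin chain Lamb1 (0.83 ± 0.13). Col4a1 and Lama4 passed as well.

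Enzymes that modify and crosslink collagen and the proteoglycans that decorate its fibrils were raised too, where 2.88% of all genes were called higher. Of 18 collagen processing and crosslinking genes 9 were called higher and 0 lower (median 0.59), among them Lox, Loxl1, Loxl2 and Loxl3 of the lysyl oxidase family. P4ha3, a prolyl 4-hydroxylase subunit, went from 3.13, 4.02, 3.30, 3.02 and 3.95 CPM to 15.8, 8.36, 10.4, 15.9 and 13.1 CPM (log2 fold change 1.88 ± 0.25 SE, adjusted p = 4.83e-06), and the groups did not overlap. Loxl3 rose by 0.90 ± 0.12. Tll1, a procollagen C-proteinase, was near the threshold (log2 fold change 1.05 ± 0.33 SE, adjusted p = 0.0473). Its call was lost in 6 of the 10 fits that each left out 1 library, with the adjusted p reaching 0.158 without injured replicate 4, and it was also lost with C57BL/6 libraries alone (adjusted p = 0.0726). Of 12 small leucine-rich proteoglycans 8 were called higher (median 0.88): Aspn, Bgn, Dcn, Fmod, Kera, Lum, Ogn and Prelp. Keratocan (Kera) rose by 1.44 ± 0.19 and fibromodulin (Fmod), a regulator of collagen fibril assembly in tendon, by 1.12 ± 0.14.

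Genes of activated fibroblasts and matricellular proteins were also raised, with 12 of 22 called higher and 0 lower (median 0.82), against 2.88% higher over all genes. Fn1, encoding fibronectin, the scaffold on which collagen is laid down, had 3892, 2435, 2538, 3389 and 2945 CPM in injured and 1216, 1218, 1378, 1187 and 1288 CPM in uninjured joints (log2 fold change 1.27 ± 0.16 SE, adjusted p = 2.27e-06). The lowest injured value, in mouse 2, was well above the highest uninjured value, in mouse 3. Thbs3, a thrombospondin of bone and tendon, rose by 1.36 ± 0.17 and Cthrc1, a secreted marker of matrix-producing fibroblasts, by 1.24 ± 0.15 (adjusted p = 2.81e-06 and 1.65e-06). Aebp1, Cilp2, Lrrc15, Pdpn, Postn, Thbs2, Thbs4, Tnn and Vcan made up the rest. Of 8 tendon and ligament genes 5 were called (median 1.02), including Scx, the transcription factor that specifies tendon. Tnmd, encoding tenomodulin of mature tendon, rose from 12.6, 9.41, 11.9, 13.7 and 12.7 CPM to 45.9, 31.5, 34.3, 48.3 and 38.1 CPM (log2 fold change 1.72 ± 0.20 SE, adjusted p = 1.11e-06), without overlap.

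**Figure D2:**
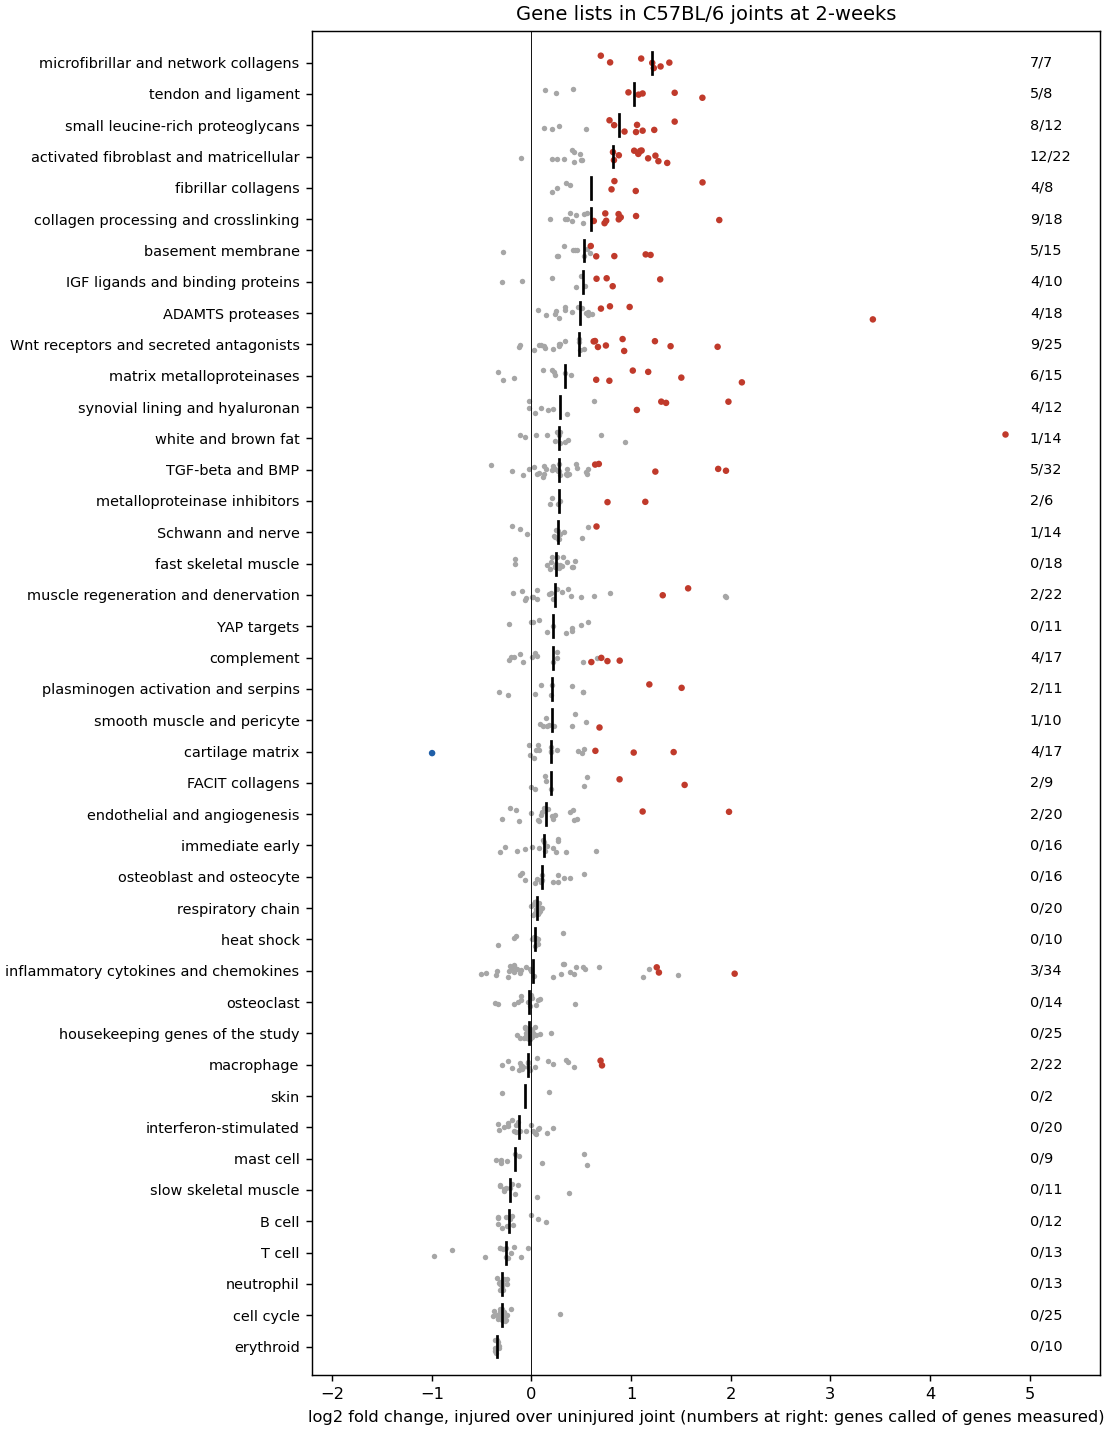
Each point is 1 measured gene of a list, placed by its log2 fold change (injured over uninjured C57BL/6 joints at 2-weeks), red where called higher, blue where called lower and grey where not called, and black bars mark list medians. The microfibrillar and network collagens have the highest median (1.21) with 7 of 7 called, and the erythroid genes the lowest (-0.35) with 0 of 10 called. The called point of the fat list is Ucp1, whose uninjured libraries are all at 0, so its place depends on the fit's prior count.

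Cartilage genes were called in both directions. Of 17 measured cartilage matrix genes 3 were called higher (Acan, Comp and Matn4) and 1 lower (Cytl1), with a median of 0.20. Over all genes 2.88% were called higher and 0.0693% lower. Comp, encoding cartilage oligomeric matrix protein, which is also made by tendon and synovium, had 759, 391, 507, 759 and 538 CPM in injured and 259, 292, 321, 273 and 306 CPM in uninjured joints (log2 fold change 1.03 ± 0.17 SE, adjusted p = 6.29e-05). Mice 1 and 4 had the highest injured levels and mouse 2 the lowest. Matn4, a matrilin that links cartilage filaments, rose by 1.43 ± 0.17 (adjusted p = 1.50e-06). Of 12 synovial lining and hyaluronan genes 4 were called (median 0.29). Prg4, which encodes the boundary lubricant lubricin, rose from 352, 302, 501, 345 and 450.0 CPM to 1157, 849.7, 910.2, 992 and 1066 CPM (log2 fold change 1.35 ± 0.18 SE, adjusted p = 3.75e-06). Has1, a hyaluronan synthase, had 9.42, 5.28, 3.74, 7.16 and 6.25 CPM in injured and 1.34, 1.95, 1.79, 1.28 and 1.84 CPM in uninjured joints (log2 fold change 1.98 ± 0.30 SE, adjusted p = 3.17e-05), and Tnfaip6, which transfers heavy chains onto hyaluronan, rose by 1.30 ± 0.32 (adjusted p = 0.00781). The serine protease Htra1 was the other called member, and for Prg4, Has1 and Tnfaip6 no injured joint fell in the range of the uninjured ones.

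Among matrix-degrading enzymes, 6 of 15 matrix metalloproteinases (median 0.34) and 4 of 18 ADAMTS proteases (median 0.49) were called higher and 0 lower. The share called higher over all genes was 2.88%. Adamts16, at chr13:70727798-70841845, a protease that cleaves fibronectin, had the largest log2 fold change of both lists. It was close to absent in uninjured joints, with 0.336, 0.918, 0.471, 0.549 and 0.735 CPM, and held 6.74, 7.59, 4.99, 6.75 and 6.64 CPM in injured joints (log2 fold change 3.43 ± 0.43 SE, adjusted p = 2.27e-06). Mouse 3 was lowest and mouse 2 highest among injured joints, and the groups were far apart. Adamts12 and Adamts15, the second an aggrecan- and versican-cleaving enzyme, rose by 0.99 ± 0.13 and 0.79 ± 0.14. Mmp3, encoding stromelysin 1, rose from 3.47, 3.90, 3.58, 4.03 and 3.76 CPM to 22.3, 12.3, 13.6, 16.9 and 15.4 CPM (log2 fold change 2.11 ± 0.46 SE, adjusted p = 0.00228), and mouse 1 was highest. Mmp12, the macrophage elastase, was measured at 1.06, 1.43, 1.98, 1.21 and 1.63 CPM in injured and 0.671, 0.574, 0.377, 0.0915 and 0.826 CPM in uninjured joints (adjusted p = 0.0205), without overlap. These are few counts, and the call was lost without injured replicate 3, uninjured replicate 3 or uninjured replicate 4, when the adjusted p reached 0.0627. Of 6 metalloproteinase inhibitors 2 were called, Timp1 (log2 fold change 1.14 ± 0.16 SE, adjusted p = 9.23e-06) and Timp2 (log2 fold change 0.76 ± 0.10 SE, adjusted p = 3.79e-06). Of 11 genes of plasminogen activation and serpins 2 were called (median 0.20), among them the acute-phase serpin Serpina3n, which rose by 1.18 ± 0.20.

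Genes of the Wnt, TGF-beta, BMP and IGF pathways were among those that rose, beside 2.88% of all genes called higher. Of 25 Wnt receptors and secreted antagonists 9 were called higher (median 0.47): the frizzled receptors Fzd1, Fzd2, Fzd6 and Fzd8 and the antagonists Sfrp1, Sfrp2, Sfrp4, Dkk2 and Dkk3. Sfrp2 went from 9.62, 15.0, 10.2, 15.7 and 10.4 CPM to 45.0, 44.0, 33.7, 54.4 and 44.8 CPM (log2 fold change 1.87 ± 0.21 SE, adjusted p = 5.38e-07), with mouse 3 lowest among injured joints. Sfrp1 rose by 1.40 ± 0.17 and Dkk3 by 1.24 ± 0.15. Of 32 TGF-beta and BMP genes 5 were called (median 0.28): Chrd, Fstl1, Gdf5, Gdf6 and Ltbp3. Gdf5, the growth factor that marks the developing joint, held 3.33, 1.65, 0.936, 2.98 and 2.31 CPM in injured and 0.336, 0.918, 0.753, 0.732 and 0.367 CPM in uninjured joints (log2 fold change 1.87 ± 0.32 SE, adjusted p = 1.14e-04), and its relative Gdf6 1.06, 0.770, 0.936, 1.13 and 0.866 CPM against 0.448, 0.230, 0.188, 0.183 and 0.184 CPM (log2 fold change 1.95 ± 0.42 SE, adjusted p = 0.00214). Both are low, and in both the groups did not overlap. Fstl1, a follistatin-like BMP antagonist, rose by 1.24 ± 0.14 (adjusted p = 5.38e-07). Of 10 IGF ligands and binding proteins Igf1, Igf2, Igfbp6 and Igfbp7 were called (median 0.52). Igf1, a growth factor for muscle, bone and cartilage, had 224, 148, 144, 188 and 178 CPM in injured against 66.3, 74.0, 69.7, 68.8 and 81.3 CPM in uninjured joints (log2 fold change 1.29 ± 0.14 SE, adjusted p = 5.38e-07), while Igfbp7 and Igfbp6 rose by 0.82 ± 0.11 and 0.75 ± 0.14.

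Of 34 measured inflammatory cytokines and chemokines 3 were called higher and 0 lower, where 2.88% of all genes tested were called higher, and the median over the list was 0.01. Il33, an alarmin released by stromal cells, had 14.0, 10.8, 13.2, 16.5 and 11.6 CPM in injured and 4.59, 4.59, 6.12, 6.68 and 5.60 CPM in uninjured joints (log2 fold change 1.26 ± 0.21 SE, adjusted p = 1.14e-04). Il11, a cytokine that acts on fibroblasts, had 0.812, 0.440, 1.04, 1.85 and 0.385 CPM against 0.224, 0.115, 0.283, 0.274 and 0.184 CPM (log2 fold change 2.04 ± 0.47 SE, adjusted p = 0.00424). The third was Ccl21a (log2 fold change 1.28 ± 0.19 SE, adjusted p = 1.51e-05), whose reads may be shared with its near-identical copies. Of 22 macrophage genes 2 were called (median -0.03), Folr2 of tissue-resident macrophages (log2 fold change 0.69 ± 0.18 SE, adjusted p = 0.0108) and Gpnmb (log2 fold change 0.71 ± 0.19 SE, adjusted p = 0.0189). The call of Gpnmb was lost without uninjured replicate 1 or 4, when its adjusted p reached 0.0537. Of 17 complement genes 4 were called (median 0.21): Cfb (0.89 ± 0.15), C1s1 (0.76 ± 0.12), C4b (0.70 ± 0.12) and Serping1. C4b fell below the fold threshold without injured replicate 1, at 0.56.

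No gene was called among 13 T cell, 12 B cell, 13 neutrophil, 9 mast cell, 25 cell cycle and 20 interferon-stimulated genes, and most of their fold changes were negative. All 13 neutrophil genes and all 10 erythroid genes had values below 0 (medians -0.29 and -0.35). Ngp, a neutrophil granule gene of the marrow, had 3008, 2981, 2469, 2835 and 2857 CPM in injured and 3875, 3620.2, 3322, 3458 and 3317 CPM in uninjured joints (log2 fold change -0.31 ± 0.11 SE, adjusted p = 0.0699), and S100a9 4743, 4426, 3647, 4427 and 4086 CPM against 5755, 5391, 4788, 5362 and 4671 CPM (log2 fold change -0.28 ± 0.12 SE, adjusted p = 0.139). Each was lower in the injured joint of every mouse, and neither passed the test. Log2 fold changes were -0.37 ± 0.13 for Alas2 of haem synthesis and -0.31 ± 0.11 for the proliferation gene Mki67, with adjusted p of 0.0911 and 0.0893. The median over the 25 cell cycle genes was -0.29, and for T cell, B cell, mast cell and interferon-stimulated lists the medians were -0.26, -0.23, -0.17 and -0.12. At an unadjusted p below 0.05, 11 of 13 neutrophil, 9 of 10 erythroid and 23 of 25 cell cycle genes were lower, as were 3 of the T cell, 0 of the B cell, 2 of the mast cell and 1 of the interferon-stimulated genes. The share of all genes with such a p, in either direction, was 22.4%. The other cell cycle gene with such a p, the cyclin D1 gene Ccnd1, was higher (0.28 ± 0.07), and is named after its value was seen. Of these lists, 4 cell cycle genes had an adjusted p below 0.05 with a change under 1.5-fold, 3 of them lower and the other Ccnd1, and DESeq2 called 0 genes. Over all 17310 genes 1384 had an adjusted p below 0.05 at any fold change.

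The lists for bone, vessel, fat and nerve had between 0 and 2 called genes each, again beside 2.88% of all genes tested. None of 16 osteoblast and osteocyte genes (median 0.10) or 14 osteoclast genes (median -0.03) was called. Of 20 endothelial and angiogenesis genes Angptl1, an angiopoietin-like protein, rose from 8.84, 13.2, 10.5, 9.97 and 10.9 CPM to 53.4, 33.7, 34.2, 46.9 and 41.6 CPM (log2 fold change 1.98 ± 0.22 SE, adjusted p = 5.38e-07), and Apln, the apelin ligand, rose by 1.12 ± 0.19 (list median 0.15). Cspg4, the pericyte proteoglycan NG2, was the 1 called of 10 smooth muscle and pericyte genes (0.67 ± 0.10, list median 0.20), and Pmp22, a myelin and fibroblast membrane protein, the 1 called of 14 Schwann cell and nerve genes (0.65 ± 0.12, list median 0.27). Of 14 white and brown fat genes (median 0.28) only Ucp1, the uncoupling protein of brown fat, was called, on 16 counts in 4 injured libraries and 0 in all 5 uninjured ones. Against a floor of 3 counts over the uninjured group this is at least 4.96-fold higher. Most of it came from mouse 1, with 1.06 CPM. The call of Ucp1 was lost without injured replicate 1 (adjusted p = 0.282) and without any 1 of the 5 uninjured libraries (adjusted p up to 0.0901), as it was with C57BL/6 libraries alone (adjusted p = 0.0888).

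Among muscle genes, 0 of 18 fast and 0 of 11 slow skeletal muscle genes were called (medians 0.25 and -0.22). Myh4, the myosin of the fastest fibres, had 27121, 34877, 35205, 26382 and 32076 CPM in injured and 19869, 22684, 27967, 23046 and 23517 CPM in uninjured joints (log2 fold change 0.41 ± 0.18 SE, adjusted p = 0.161), higher in the injured joint of each mouse but short of the threshold. Of 22 muscle regeneration and denervation genes 2 were called higher (median 0.23), where 2.88% of all genes tested were. Actc1, the cardiac actin that skeletal muscle expresses in development and regeneration, rose from 224, 431, 599.7, 465 and 441 CPM to 799, 1269.9, 1046, 1042 and 1230.0 CPM (log2 fold change 1.32 ± 0.34 SE, adjusted p = 0.0119), with no overlap and with mouse 1 lowest in both joints. None of 20 respiratory chain genes (median 0.05), 16 immediate early genes (median 0.13), 10 heat shock genes (median 0.03), 11 YAP targets (median 0.22), 2 measured skin genes (median -0.06) and the study's 25 housekeeping genes (median -0.03) was called. In the lists with fewer than 2 called genes, 32 further genes had been picked for their high level, and their log2 fold changes ran from -0.36 to 0.33 with 0 called. Over all genes 22.4% had an unadjusted p below 0.05 in this comparison, in either direction. Among the bone, muscle and other lists with 0 called genes, 4 of 18 fast muscle, 6 of 11 YAP and 4 of 16 osteoblast and osteocyte genes had such a p, all of them higher in injured joints. So did 2 of 14 osteoclast and 3 of 16 immediate early genes, of which 1 in each list was lower. At any fold change 1384 of 17310 genes had an adjusted p below 0.05, and 511 of these passed the fold threshold too. An adjusted p below 0.05 with a change under 1.5-fold was found for 3 YAP, 2 osteoblast and osteocyte and 1 immediate early gene, all higher, and for 1 osteoclast gene, which was lower. The slow muscle, respiratory chain, heat shock, skin and housekeeping lists had 0 genes with an unadjusted p below 0.05, and DESeq2 called 0 genes in any of these lists without calls.

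**Figure D3:**
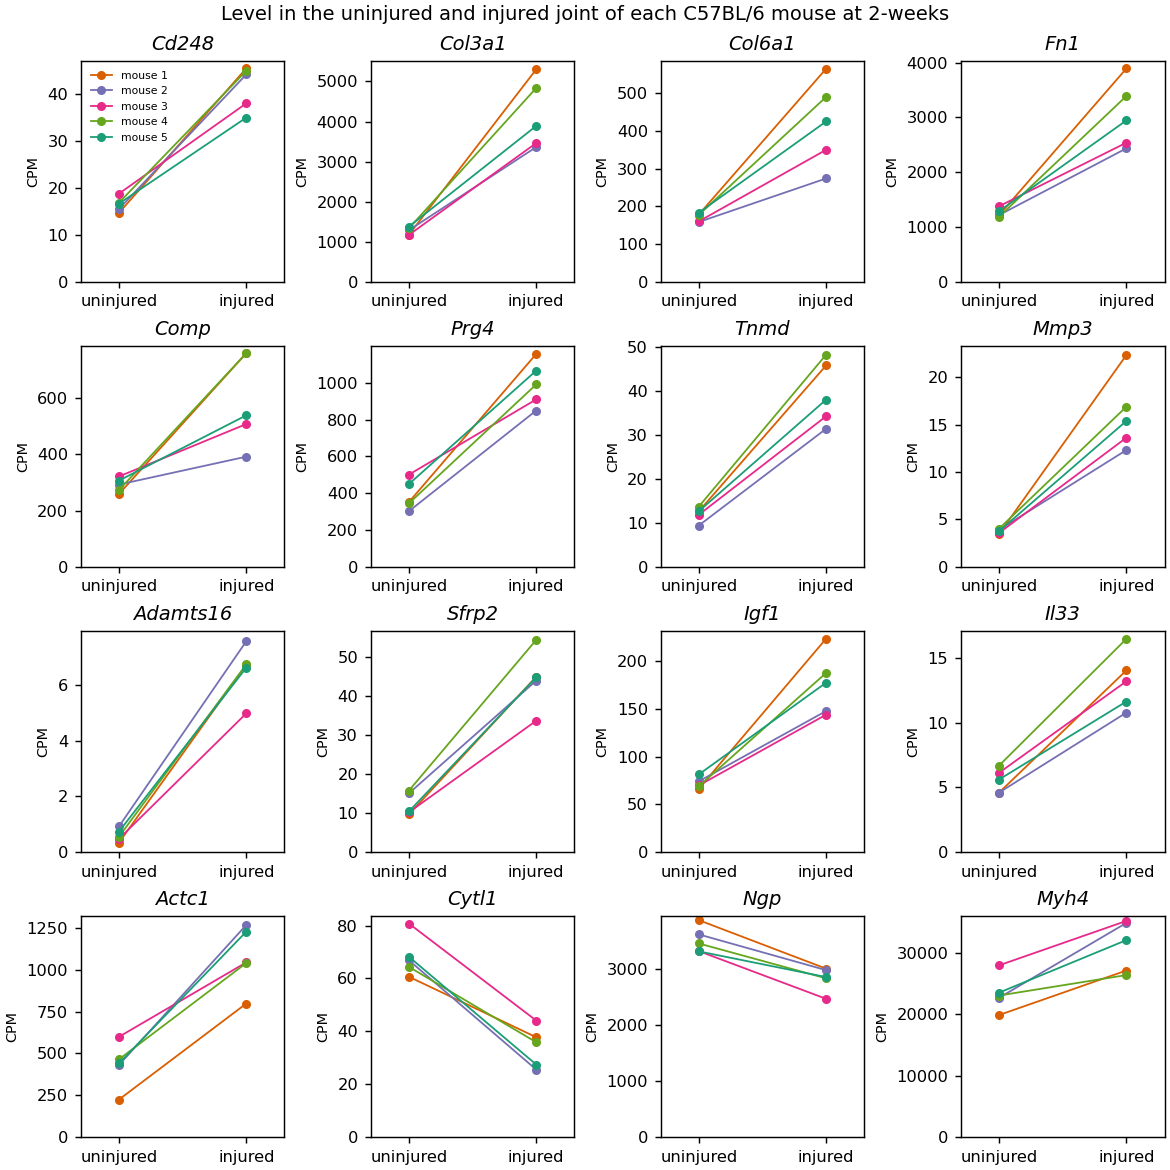
Levels in CPM of 16 genes in the uninjured and injured joint of each C57BL/6 mouse at 2-weeks, each line joining the joints of 1 mouse, with all axes from 0. Lines rise in every mouse for the first 13 genes and for Myh4, and fall in every mouse for Cytl1 and Ngp; Myh4 and Ngp did not pass the test.

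The 12 genes that were lower in injured joints included 5 with a mean level under 1 CPM. Cytl1, at chr5:37735519-37739820, encodes a secreted protein made by chondrocytes. It held 37.8, 25.5, 44.1, 35.9 and 27.4 CPM in injured and 60.7, 66.9, 80.8, 64.4 and 68.2 CPM in uninjured joints (log2 fold change -1.00 ± 0.17 SE, adjusted p = 9.12e-05). The level was lower in the injured joint of all 5 mice, and the groups did not overlap. At 1-week Cytl1 was also lower, by a log2 fold change of -1.62 ± 0.22 (adjusted p = 3.08e-06). Afp, encoding alpha-fetoprotein, had 0.162, 0.110, 0, 0.161 and 0.289 CPM against 0.448, 0.574, 0.565, 0.549 and 0.735 CPM (log2 fold change -1.88 ± 0.42 SE, adjusted p = 0.00451). Log2 fold changes were -1.18 ± 0.33 for the antitrypsin gene Serpina1d, -0.61 ± 0.18 for the globin Hbq1b, -0.60 ± 0.18 for Spic, a transcription factor of iron-recycling macrophages, -0.64 ± 0.19 for the serpin Serpina3b, -1.21 ± 0.36 for the butyrophilin-like Btnl6 and -0.95 ± 0.29 for the dynein Dnah14. Serpina1d, Serpina3b and Hbq1b have close paralogs that could share reads. The other 4 were 1700018L02Rik, C230037L18Rik, Gm14085 and 2310069B03Rik, all under 2 CPM in the mean of either group. Of the 12, Cytl1 and Afp kept their call whichever 1 library was left out, and each of the other 10 lost it in at least 4 of the 10 such fits. With the joints paired by a block for the mouse, Dnah14 and Gm14085 lost their calls (adjusted p = 0.0617 and 0.0532). The number of lower genes was 23 with this block. It was 7 without injured replicate 1, 22 without injured replicate 2, 4 without injured replicate 3, 6 without uninjured replicate 2 and 7 without uninjured replicate 5.

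The response at 2-weeks was set against that at 1-week in C57BL/6 joints, measured in other mice. The 1-week libraries belong to experimental batch 1 and those of 2-weeks to batch 2, so time and batch cannot be told apart. At 1-week 822 genes (4.75%) were higher, of which 402 were shared with the 499 of 2-weeks, 48.9% and 80.6% of each list. The median log2 fold change of the 499 genes, which the 2-weeks contrast chose, was 0.87 at 2-weeks and 1.06 at 1-week. The injury effect itself differed between the times for 88 genes (0.508%), 58 with a more positive and 30 with a more negative effect at 2-weeks. Of the 58 genes 50 were called lower at 1-week, among 185 genes (1.07%) called lower at that time, whereas at 2-weeks 2 were called higher and 0 lower, with medians of -0.80 at 1-week and 0.07 at 2-weeks. Of the 30 genes 29 were called higher at 1-week and 20 at 2-weeks, with medians of 1.47 and 0.71.

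The genes with a more positive effect at 2-weeks included muscle genes that were lower at 1-week. Effects within each time and their difference come from separate fits. Actc1 had a log2 fold change of -1.83 ± 0.28 at 1-week and 1.32 ± 0.34 at 2-weeks (difference 3.13 ± 0.30 SE, adjusted p = 5.81e-06). Myh2, the myosin of fast oxidative fibres, gave -1.63 ± 0.25 and -0.16 ± 0.17 (difference 1.45 ± 0.22 SE, adjusted p = 0.00383), and the mitochondrial creatine kinase Ckmt2 -1.40 ± 0.28 and 0.03 ± 0.19 (difference 1.41 ± 0.21 SE, adjusted p = 0.00294). Of 11 slow skeletal muscle genes 10 were called lower at 1-week (median -1.66) and 0 at 2-weeks (median -0.22), and the difference itself was called for 2 of them. For the 14 fat genes the corresponding counts were 5, 0 and 2.

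Other genes had a more negative effect at 2-weeks than at 1-week. Mest, an imprinted gene of growing mesenchyme, had log2 fold changes of 2.29 ± 0.20 at 1-week and 0.96 ± 0.14 at 2-weeks (difference -1.34 ± 0.20 SE, adjusted p = 0.00294). Fbln2, a fibulin of elastic fibres, gave 1.40 ± 0.14 and 0.72 ± 0.12 (difference -0.69 ± 0.11 SE, adjusted p = 0.00383), and the sorting receptor Sorcs2 1.18 ± 0.16 and 0.39 ± 0.10 (difference -0.81 ± 0.13 SE, adjusted p = 0.00383). Postn, the matricellular protein periostin, Cthrc1 and Col14a1 differed by -1.13 ± 0.20 SE, adjusted p = 0.0129, by -1.10 ± 0.21 SE, adjusted p = 0.0203 and by -0.80 ± 0.16 SE, adjusted p = 0.0208. At 2-weeks itself Sorcs2 was under the 1.5-fold threshold and so was not called. Each of the 10 libraries of 2-weeks was left out in turn, and no 1-week library was. Cthrc1 and Col14a1 lost the call of the difference without uninjured replicate 5 (adjusted p up to 0.0514 and 0.0545). The calls of Actc1, Myh2, Ckmt2, Mest, Fbln2, Sorcs2 and Postn were kept in all 10 such fits. The count of 88 was unstable. It was 318 with joints paired by a block (the mouse at 2-weeks, the replicate number at 1-week), 236 with DESeq2 and 36 with scaling by housekeeping genes, and it fell to 33 without injured replicate 2, 26 without injured replicate 3, 39 without injured replicate 5, 36 without uninjured replicate 1, 34 without uninjured replicate 2 and 23 without uninjured replicate 5.

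**Figure D4:**
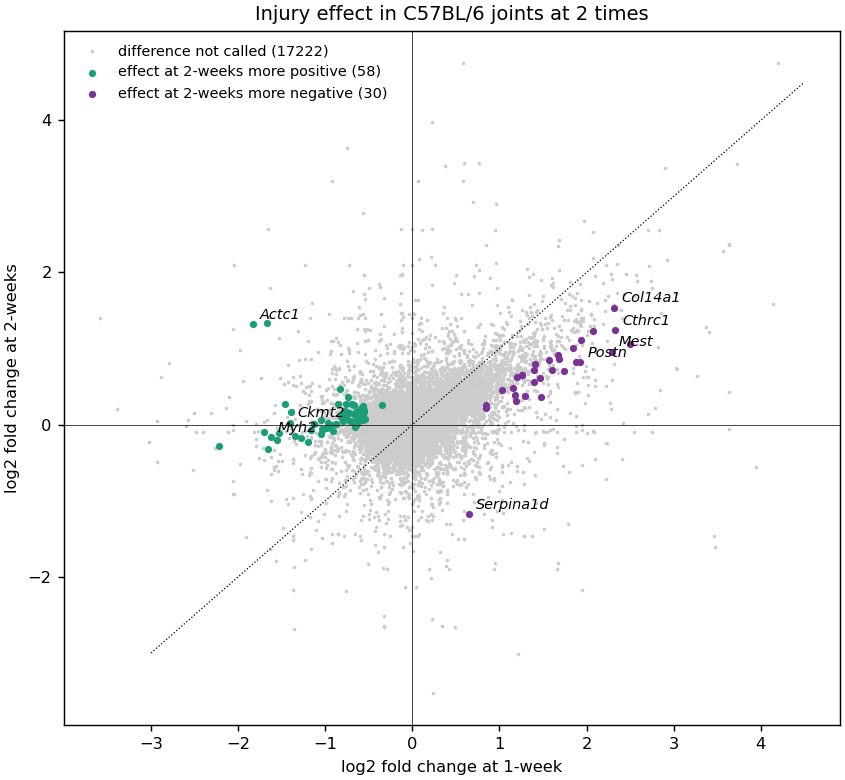
Each point is 1 gene, placed by its log2 fold change (injured over uninjured C57BL/6 joints) at 1-week (horizontal axis) and 2-weeks (vertical axis); the dotted line marks equal effects. All 58 green genes lie left of 0 at 1-week, and Actc1 is the only labelled one well above 0 at 2-weeks, while 29 of the 30 purple genes lie above 0 at both times, Serpina1d being the exception.

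At 2-weeks the same comparison called 752 genes (4.34%) higher in STR/ort and 198 (1.14%) in MRL/MpJ joints. Of the 499 genes of C57BL/6, 384 were also called in STR/ort (77.0% of the C57BL/6 list and 51.1% of the STR/ort list) and 184 in MRL/MpJ (36.9% and 92.9%), and 172 in both. The median log2 fold change of the 499 genes was 0.87 in C57BL/6, 0.92 in STR/ort and 0.54 in MRL/MpJ joints. As the C57BL/6 contrast chose these genes, the medians test no difference. Differences in the number of calls do not show different effects. The interaction of strain and injury, which tests for a different effect, was called for 8 genes against STR/ort (0.0462%) and for 0 against MRL/MpJ by edgeR. At an unadjusted p below 0.05 there were 895 genes (5.17%) against STR/ort and 984 (5.68%) against MRL/MpJ, where 5% is the share without any effect. DESeq2 called 2 genes against MRL/MpJ. Without injured replicate 2 of C57BL/6 the count against MRL/MpJ was 3 and without uninjured replicate 5 of C57BL/6 it was 2. Against STR/ort it was 31 with DESeq2, 14 with 1 factor of unwanted variation (RUVg), 17 with joints paired by a block for the mouse, and 5 without injured replicate 3 or without uninjured replicate 5.

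Of the 8 genes 2, Htra4 and Ccdc3, responded more in C57BL/6 than in STR/ort. In MRL/MpJ their mean levels were also higher in injured than in uninjured joints. Those means were 29.3 against 16.7 CPM for Htra4 and 38.2 against 28.9 CPM for Ccdc3. In C57BL/6 Htra4 was 15.0 to 26.0 CPM in uninjured and 35.9 to 43.9 CPM in injured joints, without overlap. In STR/ort it was 28.7 to 38.2 CPM in uninjured and 20.7 to 26.3 CPM in injured joints (log2 fold change -0.38 ± 0.11), and the difference in effect was 1.43 ± 0.16 SE, adjusted p = 6.40e-06. Ccdc3, a secreted protein of fat and endothelial cells, rose by 0.63 ± 0.09 in C57BL/6 and gave -0.11 ± 0.09 in STR/ort (difference 0.74 ± 0.13 SE, adjusted p = 0.0102). Its rise within C57BL/6 fell below the fold threshold without injured replicate 4 (0.55). The difference from STR/ort was called whichever 1 of the 10 C57BL/6 libraries was left out, and STR/ort libraries were not left out.

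The other 6 genes responded less in C57BL/6 than in STR/ort. Tgfbi, a TGF-beta-induced adhesion protein, was 138 to 182 CPM (median 139) in uninjured and 151 to 212 CPM (median 155) in injured C57BL/6 joints, against 124 to 161 CPM (median 133) and 237 to 322 CPM (median 287) in STR/ort. The groups overlapped in C57BL/6 and not in STR/ort, with log2 fold changes of 0.22 ± 0.10 and 1.06 ± 0.10 (difference -0.84 ± 0.14 SE, adjusted p = 0.0102). Spon1, the matrix protein F-spondin, differed by -0.93 ± 0.16 SE, adjusted p = 0.0102, and Arl4c, a small GTPase, by -0.89 ± 0.16 SE, adjusted p = 0.0133. Tnfaip6 rose in both strains, by 1.30 ± 0.32 in C57BL/6 and 3.62 ± 0.25 in STR/ort (difference -2.32 ± 0.43 SE, adjusted p = 0.0201). Pcsk5, a proprotein convertase, and Plekhg4, an exchange factor for small GTPases, differed by -1.09 ± 0.21 SE, adjusted p = 0.0201 and by -1.15 ± 0.22 SE, adjusted p = 0.0201. Without injured replicate 3 or without uninjured replicate 5 of C57BL/6 the differences of Tnfaip6, Pcsk5 and Plekhg4 were not called. That of Tnfaip6 was not called without uninjured replicate 3 either, those of Pcsk5 and Plekhg4 without uninjured replicate 1, and that of Plekhg4 without injured replicate 5, with adjusted p up to 0.0904 for Tnfaip6 and 0.0772 for the other two.

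**Figure D5:**
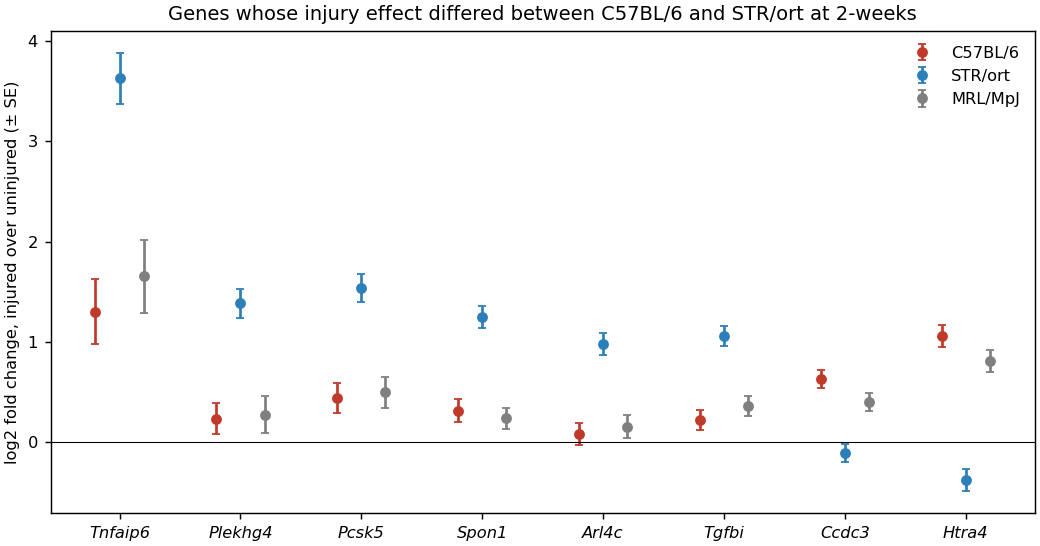
Log2 fold change of injured over uninjured joints at 2-weeks (points, with SE bars) for the 8 genes whose effect differed between C57BL/6 (red) and STR/ort (blue), with MRL/MpJ (grey) beside them; each strain has 5 joints per group. The first 6 genes lie higher in STR/ort, led by Tnfaip6 at 3.62 against 1.30, and Ccdc3 and Htra4 lie higher in C57BL/6.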

How the data were processed

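Per the submitters' processing notes and the study's methods, the authors aligned poly(A)-selected reads to mm10 with TopHat2 (version 2.0.11), counted them per gene with featureCounts, and deposited 1 table of raw counts, in which 17313 rows include 3 repeated rows (dropped) and 24 names turned into dates by a spreadsheet. Strand use in counting is not given in the sources used here. Levels are TMM-scaled CPM. An edgeR (4.0.16, R 4.3.3) quasi-likelihood fit of group means over the 30 libraries of 2-weeks gave the comparisons within strains and the strain interactions, and a second over the 20 C57BL/6 libraries of 1-week and 2-weeks gave the time interaction. Effects within 1-week come from a fit over all libraries of that time. Calls needed a Benjamini-Hochberg adjusted p below 0.05 over 17310 genes and a 1.5-fold change. Alternatives were RLE and housekeeping scaling, RUVg factors, DESeq2 (1.42.0, adjusted p not given left out), filterByExpr, C57BL/6 libraries alone, a replicate block, and leaving out each of the 10 C57BL/6 libraries of 2-weeks. Libraries of 1-week and of the other strains were not left out.

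The labels name 1 animal for both joints of a replicate number at 2-weeks. Deviations of the joints of a mouse from their group means correlated in all 5 mice (r = 0.193 to 0.296, median 0.253). Joints of different mice were not compared in this way, so the pairing rests on the labels. None of 45 pairs of libraries was identical. Named genes were, per direction, 10 called genes in order of adjusted p (ties by unadjusted p); per list, the 3 called members with the largest change or, with fewer than 2 called, the 2 with the highest level; and the 3 smallest adjusted p per direction of each interaction. Gm14085, 2310069B03Rik, Pcsk5, Plekhg4, Postn, Ccnd1 and the genes under other observations were added after their values were seen. Some genes picked by this rule are not reported here. The 42 lists held 639 genes, 621 of them measured, and 5 were matched by an older symbol. The comparison, lists and rules were chosen with earlier results of these data known. Of 200 genes changed in simulated counts for the main comparison, 90% of those changed 2-fold and 99% of those changed 4-fold were called, with 2 false calls. For the difference from STR/ort these were 84%, 100% and 6, and for that from 1-week 77%, 96% and 4. The changed genes were drawn only from genes with a mean count of at least 10. Libraries were simulated without a correlation between joints of a mouse. These shares therefore do not cover genes with few counts. Positions and promoters are from RefSeq on GRCm38.p6, in which 16662 symbols matched.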

Additional observations from a re-analysis of the deposited data

Results flagged for a closer look

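A single library stood apart from the other 4 of its group (Dixon's test at the 95% level) in 9 of 220 groups examined. Chance alone gives this in about 1 in 20 groups. In uninjured joints these were mouse 4 for Lamb1 (44.6 CPM), Adamts15 (7.59 CPM), C1s1 (33.8 CPM) and Meg3 (64.4 CPM), mouse 1 for Gdf6 (0.448 CPM) and Arl4c (28.8 CPM), and mouse 3 for Cthrc1 (14.0 CPM). In injured joints they were mouse 5 for Btnl6 (0.962 CPM) and mouse 1 for Ucp1 (1.06 CPM).

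The injury effect differed between C57BL/6 and STR/ort joints in the interaction test of edgeR for Htra4 (1.43), Ccdc3 (0.74), Tgfbi (-0.84), Arl4c (-0.89), Spon1 (-0.93), Pcsk5 (-1.09), Plekhg4 (-1.15) and Tnfaip6 (-2.32), each given as the log2 fold change in C57BL/6 minus that in STR/ort.

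Between 2-weeks and 1-week in C57BL/6 the interaction test gave differences, as log2 fold change at 2-weeks minus that at 1-week, of 3.13 for Actc1, 1.45 for Myh2 and 1.41 for Ckmt2. They were -0.65 for Tgfbi, -0.69 for Fbln2, -0.80 for Col14a1, -0.81 for Sorcs2, -0.87 for Col6a3, -1.10 for Cthrc1, -1.13 for Postn, -1.34 for Mest, -1.46 for Fbn2 and -1.84 for Serpina1d. The log2 fold change of Serpina1d was 0.65 ± 0.34 at 1-week and -1.18 ± 0.33 at 2-weeks. The differences of Tgfbi and Col6a3 were not called in 7, and that of Serpina1d in 4, of the 10 fits that each left out 1 library of 2-weeks. The times belong to different experimental batches.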

How the results depend on the processing

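The number of genes higher in injured joints stayed within 1.5 times of 499 under every alternative, from 392 to 569 when 1 library was left out. The number of lower genes (12) was 7 with scaling by housekeeping genes, 6 with 1 RUVg factor, 20 with C57BL/6 libraries alone, 23 with the replicate block for the mouse, and 4 to 22 when 1 library was left out. Genes whose effect differed from STR/ort (8) numbered 14 with 1 RUVg factor, 31 with DESeq2, 17 with the block, and 5 to 11 when 1 library was left out. Against MRL/MpJ (0) they numbered 2 with DESeq2 and 0 to 3 when 1 library was left out. Between 2-weeks and 1-week (88) they numbered 36 with housekeeping scaling, 236 with DESeq2, 318 with the block, and 23 to 128 when 1 library was left out. RUVg was not run for that comparison. The cause of these changes was not tested.

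Of 110 genes followed, 95 were called and 79 of these kept their call in every alternative that gave them an adjusted p. For 76 that was all 18 alternatives. DESeq2 gave none for Gdf6, Bdkrb2 and Afp, and the filterByExpr filter removed Afp. With C57BL/6 libraries alone 6 calls were lost, those of Tll1, Ucp1, 1700018L02Rik, C230037L18Rik, Gm14085 and 2310069B03Rik. The block ended the calls of Dnah14 (adjusted p = 0.0617) and Gm14085 (adjusted p = 0.0532) and changed no other call among the genes followed. Ckmt2, which was not called at 2-weeks, was the 1 gene that changed sign, at -0.0929 with 1 and -0.152 with 2 RUVg factors, and -0.0484 to 0.103 when 1 library was left out. At this depth the least reliable values are those of the 35 higher and 5 lower genes with a mean under 1 CPM.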

Other observations

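Genes outside the lists were described after their values were seen, so the values carry no test of a pattern. Of the imprinted Dlk1-Meg3 locus on chromosome 12, Dlk1 and 3 noncoding genes were called higher in injured joints, with log2 fold changes of 1.38 ± 0.33 SE for Dlk1, 1.38 ± 0.18 for Meg3, 1.40 ± 0.19 for Rian and 1.62 ± 0.31 for Mirg. Other genes of the locus were not counted. Dlk1 encodes a surface protein of progenitor cells. Meg3 held 160.5, 106, 96.6, 184 and 113 CPM in injured and 49.1, 46.8, 45.1, 64.4 and 48.7 CPM in uninjured joints of mice 1 to 5. The groups did not overlap, and mouse 4 was highest in uninjured joints. Meg3, Rian and Mirg lie next to each other, so their counts may not be independent.

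Fbn1, Fbn2, Mfap4 and Mfap5, whose products belong to the microfibrils of elastic fibres, were called higher, and other genes of these fibres were not counted. The fibrillin genes gave 1.01 ± 0.15 SE for Fbn1 and 1.06 ± 0.18 for Fbn2, and the microfibril-associated proteins 1.51 ± 0.20 for Mfap4 and 1.34 ± 0.17 for Mfap5. For all of them the groups did not overlap.

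Bdkrb2, Tacr1 and Piezo2 were called higher, and other genes of pain or touch were not counted. Bdkrb2, the bradykinin B2 receptor, had 0.568, 0.660, 0.624, 0.804 and 0.481 CPM in injured and 0.112, 0, 0.0942, 0.0915 and 0.184 CPM in uninjured joints (log2 fold change 2.53 ± 0.49 SE, adjusted p = 6.08e-04). Tacr1, the substance P receptor, rose by 1.68 ± 0.29 SE and Piezo2, a mechanically gated channel, by 1.45 ± 0.21 SE. All 3 were higher in the injured joint of each of the 5 mice. Among the largest changes were also those of Crabp2, a retinoic acid binding protein (log2 fold change 2.56 ± 0.41 SE, adjusted p = 5.43e-05), and C1qtnf3, an adipokine expressed in developing cartilage (log2 fold change 2.36 ± 0.27 SE, adjusted p = 7.22e-07).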
